A study of Mus musculus with 12 samples.

Results

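Transcripts of 8 receptors of innate immune recognition, 5 C-type lectin receptors (Clec4d, Clec4e, Clec4n, Clec5a and Clec7a) and 3 CD300 receptors (Cd300a, Cd300lb and Cd300lf), were followed in mouse bone-marrow-derived macrophages. They were chosen by gene symbol, and all 8 were found among the 24346 genes of the deposited table and among the 10311 genes expressed highly enough to be tested. The macrophages, of genotype WT, had been grown from bone marrow for 7 days with M-CSF, the growth factor of this lineage, in RPMI medium with 10% FSC, as the labels write it. There were 4 groups of 3 libraries: untreated control cells, cells given lipopolysaccharide (LPS, a bacterial cell wall component, 1 ng/ml for 3 h), cells given tunicamycin (Tm, 5 ug/ml), and cells given tunicamycin for 3 h and then LPS for 3 h (Tm_LPS). Tunicamycin, an antibiotic, stops the attachment of N-linked sugars to proteins in the endoplasmic reticulum (ER) and puts that organelle under stress, and the series title asks how such stress affects the inflammatory response. The exposure time of the tunicamycin-only cells, whether tunicamycin stayed on during LPS, the strain, age and sex of the mice, and whether replicates were separate animals or cultures are not given in the sources used here, so p-values measure only the spread between these libraries.

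C-type lectin receptors recognise sugars and glycolipids on microbes and ligands released by damaged cells. Mincle (Clec4e), which binds mycobacterial cord factor, MCL (Clec4d), its partner, and Dectin-2 (Clec4n), a receptor for fungal mannans, signal through the adaptor FcR-gamma (Fcer1g), MDL-1 (Clec5a) signals through the adaptor DAP12 (Tyrobp), and Dectin-1 (Clec7a), the receptor for fungal beta-glucan, carries its own signalling motif. These routes converge on the kinase Syk and, for several of the receptors, on the CARD9, BCL10 and MALT1 complex that activates NF-kB. CD300 receptors bind lipids such as phosphatidylserine on dying cells. Cd300lb encodes an activating receptor coupled to DAP12, while Cd300a and Cd300lf encode receptors with inhibitory motifs that recruit phosphatases.

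Values are FPKM, the number of sequenced fragments scaled by transcript length and by library size. Summed FPKM per library ran from 561108 to 685010 and read depth is unknown. Libraries of the same group correlated across genes with Pearson's r of 0.973 to 0.986, and libraries of different groups with 0.889 to 0.951. Replicate 1 of tunicamycin plus LPS held the highest level of its group for 6 of the 8 receptors (all but Clec7a and Cd300lf). Differences are of log2(FPKM + 1) with the standard error (SE), tested with limma over all 10311 genes, and a gene was called changed where its p, adjusted by Benjamini-Hochberg, was under 0.05 (it passed). Levels are given as mean ± SD (n = 3), and gene positions are those of mm10. In bulk RNA fewer cells of a type and less RNA per cell cannot be told apart.

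Clec4e, which encodes Mincle, had the widest range of the 8 receptors. The gene lies on chromosome 6 from 123281789 to 123289870, on the minus strand. The 250 bases before its start are shown because Clec4e and its nearest neighbour Clec4d moved in opposite directions with tunicamycin, with the promoters of both given here for comparison. Capitals mark matches to motifs searched on both strands: C/EBP (TTGCNNAA), NF-kB (GGG and TTTCC with any 2 bases between), the ATF4-CHOP composite (TGATGNAA), PU.1 (GAGGAAG), AP-1 (TGANTCA) and the interferon-response element ISRE (GAAA and GAAA with any 2 bases between).
Clec4e: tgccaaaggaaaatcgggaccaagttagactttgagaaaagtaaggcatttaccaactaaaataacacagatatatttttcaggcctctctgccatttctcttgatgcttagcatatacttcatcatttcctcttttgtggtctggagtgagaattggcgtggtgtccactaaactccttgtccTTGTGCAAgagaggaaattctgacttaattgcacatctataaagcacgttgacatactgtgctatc
Clec4d: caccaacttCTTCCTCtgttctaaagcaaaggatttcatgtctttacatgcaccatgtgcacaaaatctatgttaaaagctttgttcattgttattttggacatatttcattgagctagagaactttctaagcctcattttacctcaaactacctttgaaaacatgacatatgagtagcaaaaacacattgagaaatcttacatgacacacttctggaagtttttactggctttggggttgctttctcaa
The sequences are from RefSeq on GRCm38.p6, chr6:123289872-123290121 on the minus strand for Clec4e and chr6:123261857-123262106 on the plus strand for Clec4d. The Clec4e stretch held 1 match, to C/EBP, on the strand opposite to that printed, from 66 to 59 bases before the start. The Clec4d stretch held 1 match, to PU.1, also on the opposite strand, from 241 to 235 bases before the start. Among 32851 promoter stretches of 250 bases, 9.56% held the C/EBP letters and 10.6% the PU.1 letters. A match describes the letters and does not show that a factor binds there.

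Clec4e stood at 26.4, 33.4 and 33.4 FPKM in the control libraries and at 514, 497 and 647 FPKM with LPS. With tunicamycin alone it stood at 114, 109 and 110.4 FPKM, and with both agents at 989.8, 705 and 728 FPKM. The 4 groups did not overlap, in the order control, tunicamycin, LPS, and tunicamycin plus LPS, and each neighbouring pair in that order passed the test. LPS raised Clec4e 17.2-fold (log2 4.11 ± 0.13, adjusted p = 4.76e-13). Tunicamycin alone raised it 3.51-fold (log2 1.81 ± 0.13, adjusted p = 3.52e-08), with no LPS in the culture. On top of LPS, tunicamycin was accompanied by a further 1.45-fold difference (log2 0.54 ± 0.13, adjusted p = 0.00642), which was log2 0.38 ± 0.12 (adjusted p = 0.0317) without replicate 1 of the group given both agents.

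The change of Clec4e with LPS differed between cells without and with tunicamycin. LPS raised the gene 17.2-fold without tunicamycin. With both agents it stood 7.13-fold above tunicamycin alone (log2 2.83 ± 0.13). The difference of these changes, the interaction, was log2 -1.27 ± 0.19 (adjusted p = 0.000732). The exposure time of the tunicamycin-only cells is not given. In comparisons of both agents with tunicamycin alone, and in the interaction, an LPS effect and a different tunicamycin time therefore cannot be told apart. Clec4e was the only 1 of the 8 receptors that passed the interaction test, against 3.37% of all genes tested, 1.41% higher and 1.96% lower. In FPKM units the gain with LPS was 521 without tunicamycin and 696 with it, a difference of 175 ± 103 (SE). This difference was not tested, and its SE is large beside it, so its sign was not established. The negative interaction is therefore a result about ratios and was not shown for differences in FPKM. The other 7 receptors had interactions between log2 -0.44 ± 0.27 (Cd300lf) and log2 0.09 ± 0.22 (Clec4d), none of which passed.

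Clec4d, which encodes MCL, lies beside Clec4e on chromosome 6, from 123262111 to 123275265 on the plus strand, with its start 27.8 kb from that of Clec4e. It was the most abundant of the 8 receptors in control cells, at 204, 231 and 205 FPKM. LPS libraries held 264, 219.5 and 239 FPKM and overlapped the controls (log2 0.17 ± 0.16, 95% interval -0.16 to 0.51, adjusted p = 0.527). Tunicamycin libraries held 77.8, 88.6 and 91.1 FPKM, all below every control. Clec4d fell 2.47-fold with tunicamycin alone (log2 -1.30 ± 0.16, adjusted p = 9.22e-06). With both agents it stood at 143, 78.9 and 96.4 FPKM, replicate 1 being the highest, and was 2.32-fold lower than with LPS alone (log2 -1.21 ± 0.16, adjusted p = 2.54e-05, and log2 -1.45 ± 0.12 without replicate 1). The tunicamycin groups with and without LPS overlapped (log2 0.26 ± 0.16, adjusted p = 0.298). That comparison passed only without replicate 2 of the group given both agents (log2 0.45, adjusted p = 0.0428), and without replicate 1 it was log2 0.03 ± 0.12.

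Clec4n, which encodes Dectin-2, is the next gene of the cluster, on chromosome 6 from 123229843 to 123247021 on the plus strand, with its start 60.03 kb from that of Clec4e. Control libraries held 103, 103 and 92.7 FPKM and LPS libraries 112, 110.1 and 95.1 FPKM, which overlapped (log2 0.08 ± 0.14, 95% interval -0.21 to 0.37, adjusted p = 0.767). Tunicamycin libraries held 69.2, 71.9 and 73.9 FPKM, below every control, and Clec4n fell 1.39-fold (log2 -0.47 ± 0.14, adjusted p = 0.0128). Libraries with both agents held 91.4, 64.6 and 57.9 FPKM, all below the LPS libraries (log2 -0.58 ± 0.14, adjusted p = 0.00406). Clec4n thus fell in the same comparisons as Clec4d but by less, and whether the falls of the 2 genes differ was not tested. Between tunicamycin with and without LPS the difference was log2 -0.03 ± 0.14 (adjusted p = 0.910).

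Clec5a, the gene of MDL-1, rose with LPS and not detectably with tunicamycin. It lies on chromosome 6 from 40574894 to 40585821 on the minus strand, far from the Dectin-2 cluster. Control libraries held 30.5, 27.3 and 27.9 FPKM against 65.0, 50.8 and 78.1 FPKM with LPS, a 2.19-fold rise (log2 1.13 ± 0.13, adjusted p = 8.22e-06). With tunicamycin it stood at 32.0, 35.2 and 30.5 FPKM, just above the controls (log2 0.18 ± 0.13, 95% interval -0.10 to 0.47, adjusted p = 0.323). With both agents the libraries held 64.0, 60.5 and 61.9 FPKM, inside the range of the LPS libraries (log2 -0.03 ± 0.13, 95% interval -0.32 to 0.25, adjusted p = 0.880). With both agents Clec5a stood 1.88-fold above tunicamycin alone (log2 0.91 ± 0.13, adjusted p = 0.000136).

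Clec7a, the gene of Dectin-1, passed in none of the 7 limma comparisons, and none had an unadjusted p under 0.05. It lies on chromosome 6 from 129461591 to 129472779 on the minus strand. Group means ran from 39.5 ± 2.65 FPKM with both agents to 45.9 ± 4.32 FPKM in control cells, with single libraries between 34.7 and 50.2 FPKM. The 95% interval of the difference was log2 -0.35 to 0.18 for LPS against control and log2 -0.45 to 0.07 for tunicamycin against control.

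**Figure D1:**
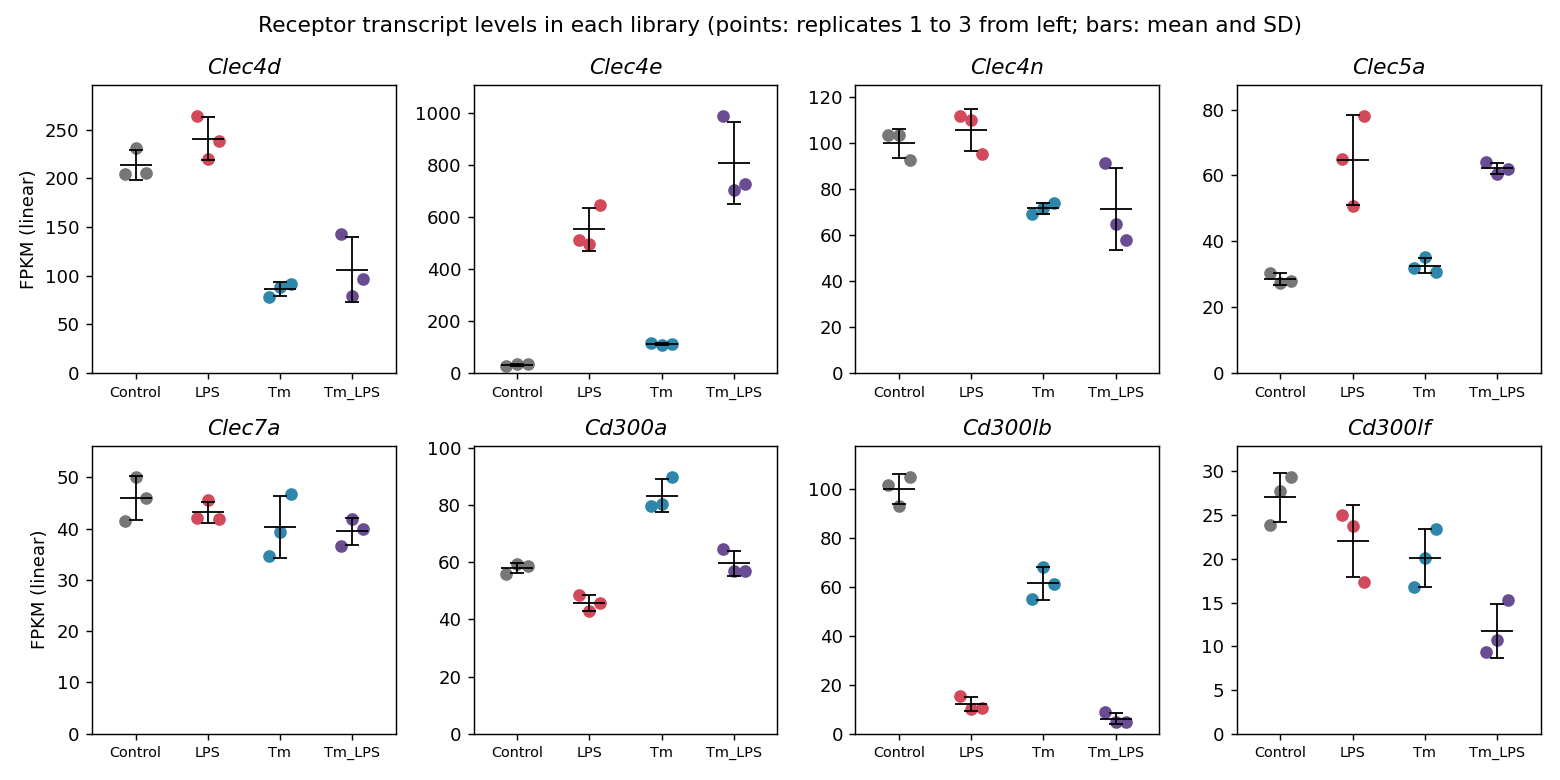
FPKM (linear axis from 0) of each receptor gene in the 3 libraries of each group, as points, with the mean and SD as bars. Clec4e steps up from control to tunicamycin, LPS and both agents, Clec4d is lower in both tunicamycin groups, Cd300lb is lower in both LPS groups, and the groups of Clec7a overlap except that with both agents all libraries lie below those with LPS alone.

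Cd300lb, the activating and DAP12-coupled receptor, had the largest falls of the 8 receptors with LPS, with or without tunicamycin. With tunicamycin alone, and in both agents against LPS, Clec4d fell more. The gene lies on chromosome 11 from 114922781 to 114934386 on the minus strand, with its start 44.3 kb from that of Cd300a (114890041 to 114904654, plus strand). The promoters of both are shown because these neighbours, an activating and an inhibitory receptor, moved in opposite directions with tunicamycin.
Cd300lb: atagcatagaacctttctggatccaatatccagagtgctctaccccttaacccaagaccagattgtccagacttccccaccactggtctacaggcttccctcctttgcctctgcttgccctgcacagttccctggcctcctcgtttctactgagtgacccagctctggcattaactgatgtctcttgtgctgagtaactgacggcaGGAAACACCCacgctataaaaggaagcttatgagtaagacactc
Cd300a: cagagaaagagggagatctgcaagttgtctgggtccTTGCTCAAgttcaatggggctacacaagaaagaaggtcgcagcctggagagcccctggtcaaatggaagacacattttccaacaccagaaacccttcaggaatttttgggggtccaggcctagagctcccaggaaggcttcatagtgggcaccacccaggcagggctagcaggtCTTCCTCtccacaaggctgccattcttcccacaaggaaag
Cd300lb is shown at chr11:114934372-114934621 on the minus strand and Cd300a at chr11:114889791-114890040 on the plus strand, both from RefSeq on GRCm38.p6. Capitals mark, in Cd300lb, 1 match to NF-kB on the opposite strand from 44 to 35 bases before the start, letters held by 1.41% of the 32851 stretches. In Cd300a they mark 1 match to C/EBP from 214 to 207 bases before the start and 1 to PU.1 on the opposite strand from 40 to 34 bases before it.

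Control libraries held 102, 92.9 and 105 FPKM of Cd300lb, and LPS libraries 15.4, 10.2 and 10.6 FPKM. The fall with LPS was 7.82-fold (log2 -2.97 ± 0.19, adjusted p = 4.76e-09). With tunicamycin the level was 54.8, 68.1 and 61.2 FPKM, between the control and LPS groups, a 1.62-fold fall (log2 -0.70 ± 0.19, adjusted p = 0.0106). The lowest levels were those with both agents, 8.75, 4.81 and 4.69 FPKM, with replicate 1 the highest of the group. These lay 1.88-fold below LPS alone (log2 -0.91 ± 0.19, adjusted p = 0.00223) and 14.7-fold below control (log2 -3.88 ± 0.19, adjusted p = 9.48e-11). Without replicate 1 the differences were log2 -1.16 ± 0.17 and log2 -4.13 ± 0.17. The 4 groups did not overlap, and each neighbouring pair in the order passed. The LPS fall of Cd300lb did not differ detectably between cells with and without tunicamycin (interaction log2 -0.21 ± 0.27, 95% interval -0.79 to 0.37, adjusted p = 0.795, and log2 -0.47 ± 0.22 with adjusted p = 0.310 without replicate 1 of both agents).

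Cd300a, which encodes an inhibitory receptor for phosphatidylserine, went down slightly with LPS and up with tunicamycin. Control libraries held 56.0, 59.4 and 58.7 FPKM, LPS libraries 48.6, 43.0 and 45.8 FPKM, and tunicamycin libraries 79.8, 80.2 and 90.04 FPKM, with no overlap between these groups. Tunicamycin raised Cd300a 1.43-fold (log2 0.51 ± 0.10, adjusted p = 0.000859). The fall with LPS was 1.26-fold (log2 -0.34 ± 0.10, adjusted p = 0.0272), and its adjusted p was above 0.05 without control replicate 2 (0.0744), control replicate 3 (0.0792), LPS replicate 2 (0.109) or LPS replicate 3 (0.0634), and in a fit without the variance trend (0.0645). With both agents the libraries, at 64.8, 57.1 and 56.9 FPKM, overlapped the controls (log2 0.04 ± 0.10, 95% interval -0.18 to 0.25, adjusted p = 0.802). They were above LPS alone (log2 0.37 ± 0.10, adjusted p = 0.0108, and 0.0503 without LPS replicate 2) and below tunicamycin alone (log2 -0.48 ± 0.10, adjusted p = 0.00344).

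Cd300lf, the other inhibitory receptor gene (chromosome 11, 115116214 to 115133992, minus strand), was clearly lower only in the group given both agents. Control libraries held 23.9, 27.8 and 29.4 FPKM, LPS libraries 25.0, 23.8 and 17.3 FPKM, and tunicamycin libraries 16.8, 20.1 and 23.4 FPKM. Neither LPS (log2 -0.30 ± 0.19, adjusted p = 0.335) nor tunicamycin (log2 -0.42 ± 0.19, adjusted p = 0.0981) passed against control, although the latter passed in a fit of those 6 libraries alone (adjusted p = 0.0422). With both agents the level was 9.35, 10.7 and 15.2 FPKM, below every library of the other groups. That was 2.23-fold under control (log2 -1.16 ± 0.19, adjusted p = 0.000114) and 1.82-fold under LPS alone (log2 -0.86 ± 0.19, adjusted p = 0.00265). It was 1.67-fold under tunicamycin alone (log2 -0.74 ± 0.19, adjusted p = 0.0127), a call lost without tunicamycin replicate 3 (adjusted p = 0.0679) or replicate 1 of both agents (adjusted p = 0.0562). The interaction for Cd300lf did not pass (log2 -0.44 ± 0.27, adjusted p = 0.484), so a joint effect beyond the separate ones was not shown.

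**Figure D2:**
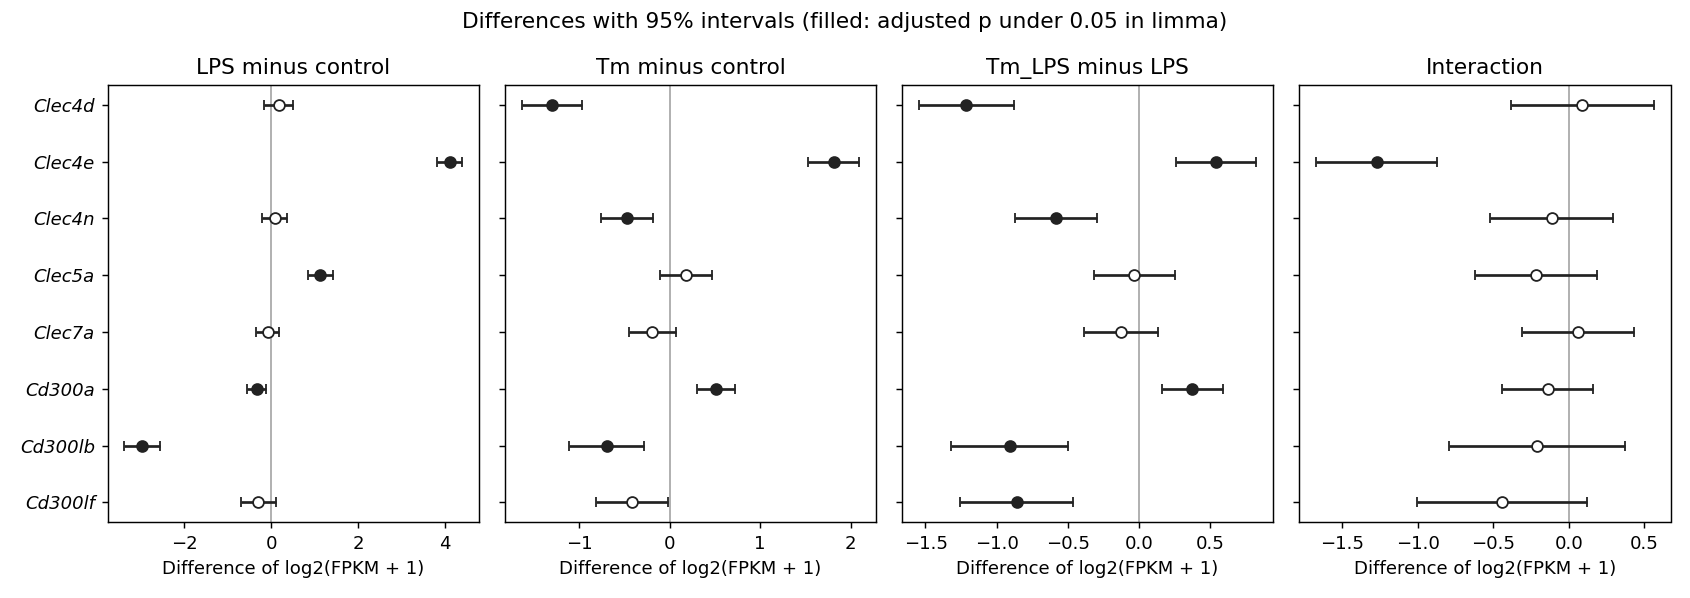
Differences of log2(FPKM + 1) for each receptor (points) with 95% intervals (bars) in 3 comparisons and for the interaction, with filled points passing the test and a different axis range in each panel. Clec4e (log2 4.11) and Cd300lb (log2 -2.97) lie farthest from 0 with LPS, Clec4e (log2 1.81) and Clec4d (log2 -1.30) with tunicamycin, and only Clec4e lies apart from 0 in the interaction.

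Counted over the 8 receptors, LPS gave 2 rises (Clec4e, Clec5a), 2 falls (Cd300lb, Cd300a) and 4 that did not pass, while 18.4% of all genes tested passed, 10.5% higher and 7.86% lower. For 4 receptors the control and LPS libraries were apart, against 33.7% of all genes. Their median difference with LPS was log2 -0.002, against log2 0.002 over all genes. Tunicamycin gave 2 rises (Clec4e, Cd300a), 3 falls (Clec4d, Clec4n, Cd300lb) and 3 that did not pass, beside 34.5% of all genes, 17.9% higher and 16.6% lower. Libraries with and without tunicamycin did not overlap for 7 receptors, all but Clec7a, against 48.2% of all genes. The median of the 8 was log2 -0.30 with tunicamycin, against log2 0.03 over all genes. Tunicamycin plus LPS against LPS gave 2 higher (Clec4e, Cd300a) and 4 lower (Clec4d, Clec4n, Cd300lb, Cd300lf), with 28.9% of all genes passing, 13.8% higher and 15.1% lower. For 7 receptors, all but Clec5a, these libraries did not overlap, against 40.3% of all genes. Here the median was log2 -0.36, against log2 0.002 over all genes. Against control, the cells given both agents had 2 receptors higher and 4 lower, with 40.8% of all genes passing, 20.7% higher and 20.2% lower. The libraries did not overlap for 6 receptors, against 47.9% of all genes. Both agents against tunicamycin alone gave 2 higher and 3 lower, with 15.7% of all genes passing, 8.69% higher and 7% lower. Here the libraries did not overlap for 5 receptors, against 31.7% of all genes. Tunicamycin against LPS gave 2 higher (Cd300a, Cd300lb) and 4 lower (Clec4d, Clec4e, Clec4n, Clec5a), with 37.1% of all genes passing, 17.5% higher and 19.6% lower. There the libraries did not overlap for 6 receptors, against 51.8% of all genes. These comparisons share groups, and the receptors were selected with earlier results of these data known, so the counts describe the set and are not a test of it.

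The changes altered which receptor transcripts dominated. Clec4e made up 5.14% ± 0.57 (SD, n = 3) of the summed FPKM of the 8 receptors in control cells, 22.0% ± 1.55 with tunicamycin, 50.7% ± 3.98 with LPS and 69.3% ± 0.92 with both. The share of Clec4d was 35.3% ± 1.42 in control cells, 16.9% ± 0.60 with tunicamycin, 22.2% ± 2.01 with LPS and 8.99% ± 1.23 with both agents. Shares of the same sum are tied, so a share can drop without a fall of its gene. With LPS the level of Clec4d was 241 FPKM on average, against 213 in control cells. The summed level itself was 604 ± 19.5 FPKM in control cells, 506 ± 24.8 with tunicamycin, 1086 ± 87.3 with LPS and 1164 ± 212 with both. Mincle and MCL form a receptor pair, and the ratio of their transcripts (Clec4e to Clec4d, both per length) was 0.146 ± 0.017 in control cells, 1.30 ± 0.14 with tunicamycin, 2.31 ± 0.38 with LPS and 7.80 ± 1.03 with both. This ratio separated all libraries of one group from those of every other and ran from 0.129 to 0.163 in control cells and from 6.91 to 8.93 with both agents. In the CD300 family the ratio of inhibitory Cd300a to activating Cd300lb was 0.583 ± 0.049 in control cells, 1.37 ± 0.16 with tunicamycin, 3.89 ± 0.65 with LPS and 10.5 ± 2.67 with both. Both ratios therefore had the same order of groups. Transcript ratios do not measure receptor protein at the cell surface.

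**Figure D3:**
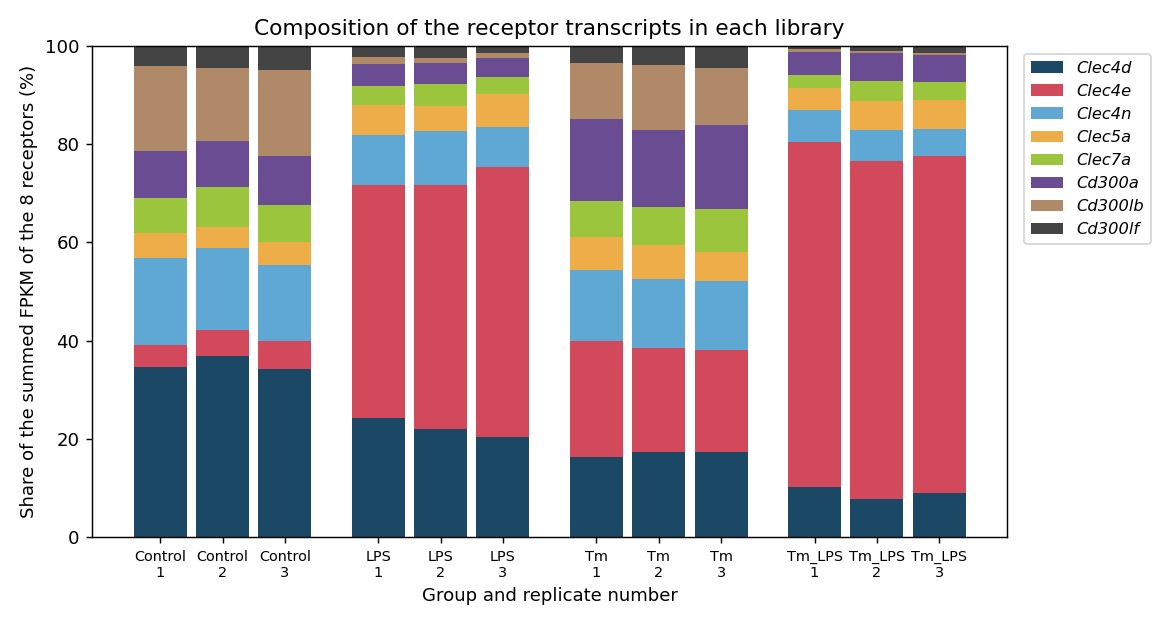
Share of the summed FPKM of the 8 receptors (percent, bars from 0 to 100) taken by each gene in every library. Clec4e grows from 4.49% to 5.58% in control libraries to between 68.6% and 70.3% with both agents, while Cd300lb shrinks from at least 14.9% in controls to at most 0.62% with both agents.

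The neighbours of these genes were compared with them in place. The Dectin-2 cluster held 9 genes of the C-type lectin lists with a value in the table, of which 7 were expressed enough to be tested. Clec4a2 and Clec4b1, which lie between Clec4a3 and Clec4n, fell with tunicamycin like Clec4d, by log2 -1.55 ± 0.22 (adjusted p = 4.28e-05) and log2 -1.86 ± 0.32 (adjusted p = 0.000307), and stood at 5.65 ± 1.45 and 0.50 ± 0.29 FPKM in that group. Clec4a3 rose with tunicamycin instead (log2 0.65 ± 0.20, adjusted p = 0.0174), and Clec4a1 rose with LPS (log2 1.09 ± 0.26, adjusted p = 0.00695). Tunicamycin thus lowered 4 of the 7 tested genes of the cluster and raised 2, beside 16.6% of all genes lower and 17.9% higher. Of the cluster genes, 3 are among the 8 receptors, and genes outside the lectin lists were not included. The count and the order of genes are therefore a description and not a test. The 4 lowered genes (Clec4b1, Clec4a2, Clec4n and Clec4d) followed each other among the tested genes, with the raised Clec4a3 and Clec4e on either side. Clec4a1, Clec4a2, Clec4a3 and their relatives are close paralogs, and the assignment of reads they share is not described by the sources used here. In the CD300 cluster, Cd300ld lay between Cd300lb and Cd300lf at 80.6 ± 2.99 FPKM in control cells and passed neither with LPS (log2 0.02 ± 0.11) nor with tunicamycin (log2 0.29 ± 0.11, adjusted p = 0.0584). Cd300e was at or below 1.85 FPKM in every library, and its lower level with both agents than with LPS (log2 -0.83 ± 0.30, adjusted p = 0.0482) was lost under 8 alternatives (adjusted p from 0.0584 to 0.161), among them no filter, a pseudocount of 0.1 and leaving out any of 6 single libraries.

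**Figure D4:**
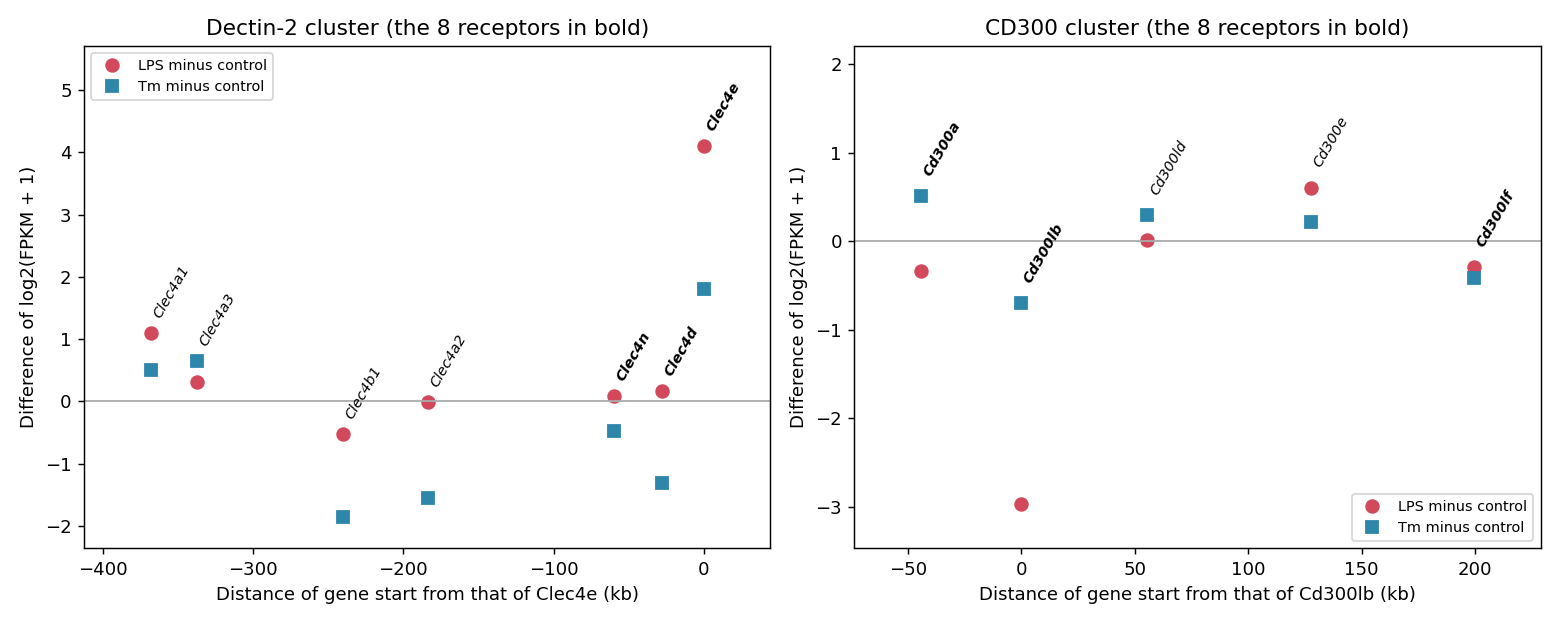
Differences of log2(FPKM + 1) with LPS (circles) and tunicamycin (squares) against the distance of each gene's start, in kb, from that of Clec4e (left) or Cd300lb (right). Clec4e stands at log2 4.11 with LPS while Clec4d, 27.8 kb away, stands at log2 0.17, and Cd300lb at log2 -2.97 beside Cd300a at log2 -0.34.

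Of 28 other C-type lectin receptor genes, listed from general knowledge with earlier results of these data known, 10 were tested. Of these, 4 rose and 0 fell with LPS, 2 rose and 2 fell with tunicamycin, and 0 were higher and 4 lower with both agents than with LPS. Leaving out LPS replicate 2 made it 2 rises with LPS and 2 lower with both agents. Leaving out control replicate 1, tunicamycin replicate 2 or tunicamycin replicate 3 made it 1 rise with tunicamycin. Of all genes tested, 10.5% were higher and 7.86% lower with LPS, and 17.9% higher and 16.6% lower with tunicamycin. With both agents against LPS 13.8% were higher and 15.1% lower. Cd69, an early activation marker, rose from 0.82 ± 0.62 to 388 ± 109 FPKM with LPS (log2 7.76 ± 0.24, adjusted p = 2.53e-13) and stood at 198 ± 17.1 FPKM with both agents. Its interaction was log2 -3.76 ± 0.34 (adjusted p = 4.47e-06), negative like that of Clec4e. The control level of Cd69 lay under the 1 FPKM added before the log, so the size of this value depends on that addition. Unlike Clec4e, Cd69 was lower with both agents than with LPS (log2 -0.93 ± 0.24, adjusted p = 0.00844). That call was lost with a pseudocount of 0.1 (0.0950) and without LPS replicate 2 (0.0547). Olr1, the receptor LOX-1 for oxidised lipoprotein, was listed at 0 in control cells and reached 5.33 ± 1.35 FPKM with LPS, against 0.36 ± 0.32 FPKM with both agents. Olr1 reached the filter only in the LPS group. In the counts above it could therefore only be a rise with LPS and lower with both agents than with LPS.

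Transcripts of the adaptors Fcer1g and Tyrobp stood above those of every receptor in each library. Fcer1g, the FcR-gamma gene, stood at 2577 ± 137 FPKM in control cells and 2730.2 ± 202 with LPS (adjusted p = 0.590), and fell with tunicamycin to 1787 ± 76.0 FPKM (log2 -0.53 ± 0.08, adjusted p = 0.000154). With both agents it was lower than with LPS alone (log2 -0.42 ± 0.08, adjusted p = 0.00149, and 0.0551 with quantile normalization). Tyrobp, the DAP12 gene, passed neither with LPS (log2 0.07 ± 0.12) nor with tunicamycin (log2 -0.21 ± 0.12). It was lower with both agents than with LPS (log2 -0.43 ± 0.12, adjusted p = 0.0140), a call lost with quantile normalization (log2 -0.19, adjusted p = 0.254), without a filter (0.0611), without the variance trend (0.0591), without LPS replicate 1 (0.0567) and without replicate 2 of both agents (0.0575). Of the 3 adaptors tested, 0 rose in any of these comparisons. Of all genes tested, 10.5% rose with LPS, 17.9% with tunicamycin and 13.8% in both agents against LPS.

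Downstream of the adaptors, the list of Syk, Src-family and CARD9 signalling genes had 9 rises, 1 fall and 9 that did not pass of 19 with LPS (0 falls without control replicate 2, LPS replicate 2, the filter or the variance trend), and 10 rises, 1 fall and 8 that did not pass with tunicamycin. Its median difference was log2 0.34 with LPS and log2 0.52 with tunicamycin, against log2 0.002 and 0.03 over all genes. Of all genes tested, 10.5% rose and 7.86% fell with LPS, and 17.9% rose and 16.6% fell with tunicamycin. Malt1, the paracaspase of the CARD9 complex, rose from 2.44 ± 0.63 to 37.4 ± 8.05 FPKM with LPS (log2 3.47 ± 0.20, adjusted p = 7.66e-10). Lcp2, the scaffold SLP-76, rose with LPS (log2 2.18 ± 0.10, adjusted p = 9.38e-11) and with tunicamycin (log2 1.11 ± 0.10, adjusted p = 6.13e-07). It was higher still with both agents than with LPS (log2 0.91 ± 0.10, adjusted p = 7.72e-06), an order of groups shared with Clec4e. Src, a kinase gene, reached 3.68 ± 0.52 FPKM with LPS from 0.06 ± 0.03. It reached the filter only in libraries given LPS, so with LPS it could be called only as a rise. Of the 3 genes of phosphatases recruited by inhibitory motifs, Inpp5d, the lipid phosphatase SHIP-1, fell in all 3 comparisons: with LPS (log2 -1.16 ± 0.15, adjusted p = 2.63e-05), with tunicamycin (log2 -0.90 ± 0.15, adjusted p = 0.000269), and with both agents against LPS (log2 -0.53 ± 0.15, adjusted p = 0.0150). The last call ended when LPS replicate 2 (0.0600) or 3 (0.0646) was left out, or replicate 1 of both agents (0.0618). Ptpn6 and Ptpn11, which encode SHP-1 and SHP-2, passed in none of them.

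Of 7 tested genes of C/EBP factors, PU.1 and IRF8, which act in myeloid gene control, 2 rose and 2 fell with LPS and 5 rose and 0 fell with tunicamycin. Beside the counts in this paragraph, 10.5% of all genes tested rose and 7.86% fell with LPS, and 17.9% rose and 16.6% fell with tunicamycin. Cebpd rose with LPS (log2 2.50 ± 0.18, adjusted p = 1.42e-08) and with tunicamycin (log2 1.11 ± 0.18, adjusted p = 0.000148), and its interaction was log2 -1.14 ± 0.25 (adjusted p = 0.0170, and 0.0543 without LPS replicate 1). Cebpb, whose product is known to act on the Mincle gene, varied widely between replicates, at 144, 84.5 and 14.8 FPKM with tunicamycin, and passed neither with LPS (log2 -0.39 ± 0.55) nor with tunicamycin (log2 0.49 ± 0.55). It was higher with both agents than with LPS (log2 2.47 ± 0.55, adjusted p = 0.00318). Ddit3, which encodes the ER-stress factor CHOP of the same family, rose from 45.6 ± 6.17 to 1601 ± 145 FPKM with tunicamycin (log2 5.11 ± 0.15, adjusted p = 3.34e-13). Among 12 tested genes that CARD9 and NFAT signalling is known to induce, 10 rose and 1 fell with LPS (0 fell without LPS replicate 1) and 4 rose and 2 fell with tunicamycin (1 fell without tunicamycin replicate 2); LPS induces the same genes through TLR4, so these values do not show activity of the lectin receptors. Il1b, Cxcl1 and Tnf led the list with LPS (log2 9.02 ± 0.15, 7.78 ± 0.26 and 7.59 ± 0.16). Some of the 12 reached the filter only in libraries given LPS. Among these, Il1b averaged 0.56 FPKM in control cells and 0.35 with tunicamycin, and Csf2 stood at 0 in both. With LPS such genes could be called only as rises, so the filter partly set that count. Among 15 genes of glycoprotein processing in the ER, the step that tunicamycin disturbs, 2 rose and 3 fell with tunicamycin, a share near the 34.5% of all genes that passed there, with 1 rise when any of control replicates 1 and 3 and tunicamycin replicates 2 and 3 was left out and 4 rises with quantile normalization. Gfpt1, an enzyme of sugar nucleotide synthesis, rose (log2 1.13 ± 0.20, adjusted p = 0.000324), while Dad1, a subunit of the oligosaccharyltransferase, fell (log2 -1.35 ± 0.13, adjusted p = 6.60e-07), as did Mogs, the first glucosidase of glycan trimming (log2 -0.93 ± 0.29, adjusted p = 0.0192). The call of Mogs was lost without control replicate 1 (0.0697), without tunicamycin replicate 3 (0.112) and without a filter (0.0739).

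The genes whose levels followed each receptor most closely over the 12 libraries were found by Pearson's r of log2(FPKM + 1), as a description, since the libraries share the 4 treatments. Clec4e was followed by Icam1, an adhesion molecule (r = 0.995), Cd40, a costimulatory receptor (r = 0.993), and Slc7a11, the cystine transporter (r = 0.993). Clec4d was followed by Cstb, a cathepsin inhibitor (r = 0.993), Usmg5 (r = 0.988) and Ms4a7, a macrophage membrane protein (r = 0.988). For Clec4n these were Tmem167 (r = 0.955), Pfdn1 (r = 0.950) and Bud31 (r = 0.949), and for Clec5a Exoc3l4 (r = 0.982), Tpbg (r = 0.974) and Cxcl3, a chemokine (r = 0.970). Cd300lb was followed by Snx8 (r = 0.987), Slc40a1, the iron exporter ferroportin (r = 0.975), and Rab4a (r = 0.969). Cd300a was followed by Atg12, an autophagy gene (r = 0.969), Mrm1 (r = 0.968) and H1f0 (r = 0.967), and Cd300lf by Soat1, which esterifies cholesterol (r = 0.954), Apitd1 (r = 0.937) and Mcm2 (r = 0.936). The best values for Clec7a were lower, with Ly86 at r = 0.864, Sap30bp at r = 0.850 and Ids at r = 0.847. Among the receptors themselves, Clec4d and Clec4n had r = 0.923 and Clec4e and Clec5a r = 0.939, while Clec4e and Cd300lb had r = -0.958.

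Markers of other cell types that carry some of these receptors were read beside them. All 10 macrophage markers were expressed, with summed levels of 14578 to 24209 FPKM per library. Clec4d, Clec4e and Clec5a are also expressed by neutrophils, and the 11 neutrophil markers with a value summed to between 113 and 153 FPKM in control cells, 227 and 355 with LPS, 41.8 and 58.7 with tunicamycin and 44.3 and 56.8 with both agents. Of these, 3 were under 1 FPKM in every library. Of all genes tested, 10.5% rose and 7.86% fell with LPS, and 17.9% rose and 16.6% fell with tunicamycin. With LPS 3 of the 8 tested neutrophil markers rose and 0 fell (1 rose without control replicate 2 or without LPS replicate 1), and with tunicamycin 0 rose and 3 fell, S100a8 by log2 -2.79 ± 0.48 (adjusted p = 0.000308), S100a9 by log2 -1.91 ± 0.40 and Ngp by log2 -0.80 ± 0.26. The other 5 did not pass with tunicamycin, and the markers did not move as one: Csf3r stood at 7.11 ± 0.80 FPKM in control cells and 10.8 ± 2.12 with tunicamycin, and Cxcr2 at 0.56 ± 0.10 and 0.70 ± 0.06. S100a8 and S100a9 made up most of the fall in the sum, from 67.0 to 9.15 and from 18.5 to 4.03 FPKM. The summed level of the neutrophil markers was lower in both tunicamycin groups, as was Clec4d. Clec4e was higher with tunicamycin against control (log2 1.81 ± 0.13) and with both agents against LPS (log2 0.54 ± 0.13). Clec5a passed in neither comparison (log2 0.18 ± 0.13 and log2 -0.03 ± 0.13). The part of neutrophils in these levels was not tested. Mast cell and basophil markers summed to at most 1.00 FPKM, with 4 of 7 at 0 in every library, T and NK cell markers to at most 0.58 FPKM, B and plasma cell markers to at most 3.12 FPKM and erythroid markers to at most 0.70 FPKM. Dendritic cell markers summed to between 2.53 and 4.92 FPKM in control cells, 13.6 and 28.5 with LPS, 0.93 and 2.48 with tunicamycin and 11.4 and 19.7 with both agents. In the LPS groups most of this was Ccl22, a chemokine that activated macrophages also make (12.9 FPKM on average with LPS). Stromal markers summed to between 8.85 and 11.1 FPKM in control cells, 9.22 and 17.0 with LPS, 22.0 and 41.2 with tunicamycin and 18.2 and 46.8 with both agents.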

How the data were processed

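RNA sequencing of 12 libraries of mouse bone-marrow-derived macrophages was used, 3 per group. The values are FPKM as deposited by the authors, with 1 value per gene symbol and library. The tools named are Cufflinks 2.2.1, TopHat2 2.0.13, SAMtools 0.1.19 and Bowtie2 2.2.3, with genome build mm10, per the submitters' processing notes. Not given in the sources used here are the annotation, the strandedness of the counting and the library scaling. All 12 columns matched a sample by title, and no pair of libraries was identical. Median-of-ratios factors were 1.013 to 1.019, so the libraries were already level on that scale. FPKM give no read depth: against control replicate 1, between 7.07% and 19.0% of genes below 0.3 FPKM in both libraries shared the most common ratio, and whole reads were not recovered.

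Genes with at least 1 FPKM in at least 3 libraries (10311 of 24346) were fitted as log2(FPKM + 1), which understates the change of low genes, in R 4.3.3 by limma 3.58.1, using lmFit and a trended eBayes on the 12 libraries together and a mean for each group. There were 7 contrasts: the 6 pairs of groups and the interaction. The method was tested on simulated data. The receptors, gene lists and motifs were chosen with earlier results of these data known. Named genes are the 8 receptors, up to 3 members of each list with the largest passing change, the 3 genes most correlated with each receptor, and, chosen after their values were seen, other members of the 2 gene clusters, Ptpn6 and Ptpn11. The neutrophil markers Csf3r and Cxcr2 were also named, outside this rule. List symbols were matched to the table, 3 of them by a RefSeq synonym. Positions are from GENCODE M21, which annotates mm10, and promoters from RefSeq on GRCm38.p6, the same build. Promoter stretches end at the RefSeq start, and that of Cd300lb reaches into the GENCODE gene. Of the 8 receptors, 7 had a promoter there. For each, bases shortly after the RefSeq start, which are not printed, were found near the start of a GENCODE transcript. Alternatives changed the pseudocount (to 0.1), the filter (none, or 5 FPKM), the scaling (quantile normalization or median of ratios) and the fit (a replicate block, the contrast's own samples only, no trend, robust), or left out each library. Tables and figures were made with pandas 2.3.3 and matplotlib 3.10.9 in Python 3.11.15.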

Additional observations from a re-analysis of the deposited data

Results flagged for a closer look

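The change of Clec4e, the gene of the receptor Mincle, with LPS differed between cells with and without tunicamycin in the interaction test (log2 -1.27 ± 0.19, adjusted p = 0.000732 in limma). As the tunicamycin-only exposure time is not given, an LPS effect and a different tunicamycin time cannot be told apart in it. Over 20 alternatives on the log scale the adjusted p lay between 9.85e-05 and 0.0136, and the difference between log2 -1.43 and -1.15. The mean level was higher with tunicamycin both in the groups without LPS (111 against 31.1 FPKM) and in those with it (807 against 552 FPKM).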

How the results depend on the processing

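The 8 receptors in 7 contrasts gave 56 results, of which 33 passed, and 1168 values under the alternatives. Of these values 1144 kept their direction and side of the threshold, 9 lost a call, 2 gained one and 13 changed sign, 0 of the last among results that had passed. The calls lost belonged to 4 results: Cd300a with LPS against control and in both agents against LPS, Cd300lf in both agents against tunicamycin, each given above, and Clec4n in tunicamycin against LPS (log2 -0.55 ± 0.14), which was log2 -0.32 ± 0.13 with quantile normalization (adjusted p = 0.0601).

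Leaving out single libraries, the receptors lower with LPS numbered 1 to 2, and the receptors higher with both agents than with LPS 1 to 2 (1 without LPS replicate 2). All genes passing ranged from 1064 (without tunicamycin replicate 2) to 1652 for both agents against tunicamycin, where 1618 passed, and from 229 (without tunicamycin replicate 3) to 353 for the interaction, where 347 passed. Without the variance trend 1 receptor was lower with LPS, in place of 2.

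Quantile normalization changed the sign of Clec4n with LPS (log2 -0.092), Cd300a in both agents against control (log2 -0.11) and Clec7a in tunicamycin against LPS (log2 0.014), and the rises among called genes went from 55.4% to 44.9% for both agents against tunicamycin. Leaving out single libraries, the sign also changed for 7 differences, with these ranges: Cd300a in both agents against control, log2 -0.024 to 0.067; Clec5a in both agents against LPS, log2 -0.20 to 0.11; in both agents against tunicamycin, Clec4n, log2 -0.22 to 0.10, and Clec7a, log2 -0.12 to 0.089. For the interaction the ranges were log2 -0.15 to 0.28 for Clec4d, log2 -0.30 to 0.020 for Clec4n and log2 -0.038 to 0.17 for Clec7a. None of these had passed, and the cause was not tested. The interaction of Clec4e on the linear scale, an alternative chosen after seeing the data, was 175 ± 103 FPKM.

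The groups share replicate numbers whose meaning is not labelled. In 18 same-number pairs of libraries the deviations from the group means correlated with r from -0.04 to 0.09, 0 of them over 0.1. In pairs of other numbers r ran from -0.11 to 0.05. Of 12 libraries, 8 correlated best with their own number, and whether this exceeds what unlinked numbers give was not tested. With the replicate number as a block 0 of the receptor calls changed, with 2 receptors higher and 2 lower with LPS, and all genes passing were 1858 for LPS, 3552 for tunicamycin and 348 for the interaction. Among the list genes named, 59 of 1372 values lost a call and 0 changed sign. Depth is unknown, so low levels carry no counting interval.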
